A study of Mus musculus with 4 samples.

Results

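The genes that encode the ligands and the receptor chains of interleukin-12 and the interferons were examined in RNA-seq of cells described as tumor-associated macrophages (TAMs). The 10 genes were taken by symbol from the 54532 genes of the count table. They comprise 6 receptor chains, namely *Ifngr1*, *Ifngr2*, *Ifnar1*, *Ifnar2*, *Il12rb1* and *Il12rb2*, and 4 ligand genes, namely *Il12a*, *Il12b*, *Il23a* and *Ifng*. All 10 symbols were found once each. The tumors came from NB9464, a MYCN-amplified murine neuroblastoma line, implanted under the skin of C57BL/6 mice aged 4 to 6 weeks and left untreated until harvest at day 40. In the SYK KO group a floxed *Syk* allele was deleted by Cre expressed from the *Lyz2* (LysM) promoter, which is active in macrophages, monocytes and neutrophils, so that all other cells of these hosts kept *Syk*. The SYK WT group carried intact *Syk*. There were 2 libraries per group, M7 and M8 from SYK WT and M9 and M10 from SYK KO. The TAMs had been isolated with magnetic beads against CD11b and the macrophage antigen F4/80. The labels, by contrast, also speak of RNA from bone marrow-derived macrophages and the title of the series of adoptive transfer. Whether the libraries of a group came from separate mice was not stated in the sources used here, so p-values measure only the spread between these libraries, which may be technical.

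The libraries held between 20755886 and 23518045 counts. *Syk* itself, the gene targeted in the SYK KO group, did not follow the labels by whole-gene counts. It stood at 27.9 and 23.2 counts per 1000000 (CPM, scaled by TMM factors, which equalise the bulk of all genes between libraries) in the libraries labelled SYK WT and at 196 and 160 CPM in those labelled SYK KO, a log2 difference of 2.80 ± 0.194 (SE, adjusted p = 0.000674). Scaled to the macrophage markers below, the difference was -0.13 (adjusted p = 0.818, edgeR). Scaled to 6 pan-leukocyte genes it was -0.83 (adjusted p = 0.0303, edgeR), a scaling under which 92.8% of all genes tested were called lower. Reads from the deleted and the retained exons are not separated in these counts, and an exchange of the labels, which would turn every direction given here, was not tested. All 10 macrophage markers examined were higher in the libraries labelled SYK KO, and their summed level was 740 and 513 CPM in SYK WT against 6256 and 3903 CPM in SYK KO. Of 8 fibroblast markers, 5 were lower, and their summed level was 12613 and 14509 CPM against 4115 and 5031 CPM. In M7, M8 and M10 the fibroblast sum exceeded the macrophage sum. Levels below are therefore those of whole libraries and were not assigned to macrophages. None of the macrophage or fibroblast markers was at 0 in every library, whereas the neuroblastoma markers were mixed. *Hand2* had between 3666 and 7403 counts and was not called, *Mycn* was higher in SYK KO at 0.74 (adjusted p = 0.0415), and *Th* and *Dbh* had no count in any library. Mitochondrial transcripts took 2.20% and 2.34% of the counts in SYK WT and 6.00% and 15.9% in SYK KO. All 4 neutrophil markers tested were also higher, with summed levels of 23.7, 37.0, 387 and 186 CPM in M7, M8, M9 and M10. Over all 16451 genes tested 22.7% were called higher and 16.7% lower. Of 8 endothelial markers 3 were lower, too few to set apart from that share. Markers of macrophages, fibroblasts and neutrophils thus moved with the labels. In bulk RNA fewer cells of a type and less RNA per cell cannot be told apart. Directions below are those of the libraries as labelled, and the part of these differences in each result was not tested beyond the scalings given.

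Interferons act through paired receptor chains. Interferon gamma, made mainly by T cells and natural killer cells, binds the chain encoded by *Ifngr1* and signals once *Ifngr2* joins it, whereas the type I interferons bind *Ifnar2* and *Ifnar1*, which nearly all nucleated cells express. Interleukin-12 is a heterodimer of the products of *Il12a* and *Il12b*, secreted by activated macrophages and dendritic cells, and it binds *Il12rb1* together with *Il12rb2* on T and natural killer cells, where it drives interferon gamma production through STAT4. Interleukin-23 pairs the *Il12b* product with that of *Il23a*, and its receptor pairs *Il12rb1* with *Il23r*.

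Receptor chains were detected more often than ligand genes. At a floor of 3 counts, 23 of 24 receptor values over the 4 libraries were detected (95.8%), against 10 of 16 ligand values (62.5%). Of the 6 receptor chains, 5 reached the floor in every library, the exception being *Il12rb2*. Of the 4 ligand genes, only *Il23a* did so. Raising the floor to 10 counts left 91.7% of receptor and 31.2% of ligand values, and lowering it to 1 count gave 100% and 75%. In SYK WT 11 of 12 receptor values and 4 of 8 ligand values were detected, and in SYK KO 12 of 12 and 6 of 8. The floor of 3 counts amounted to between 0.109 and 0.163 CPM, so lower levels were not detectable at this depth.

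The 6 receptor chains together held 4774, 3646, 8522 and 6179 counts in M7, M8, M9 and M10. The 4 ligand genes held 49, 37, 174 and 131 counts, and without *Il23a* they held 8, 2, 11 and 21. Ligands thus supplied 1.02% of the counts of the 10 genes in M7 (95% Wilson interval 0.769 to 1.34), 1.005% in M8 (0.730 to 1.38), 2.001% in M9 (1.73 to 2.32) and 2.08% in M10 (1.75 to 2.46). Intervals of this kind cover counting error only. Per unit of transcript length, as transcripts per 1000000 (TPM), summed receptor chains exceeded summed ligands 54.5-fold and 56.0-fold in the SYK WT libraries and 29.7-fold and 27.8-fold in the SYK KO libraries.

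**Figure D1:**
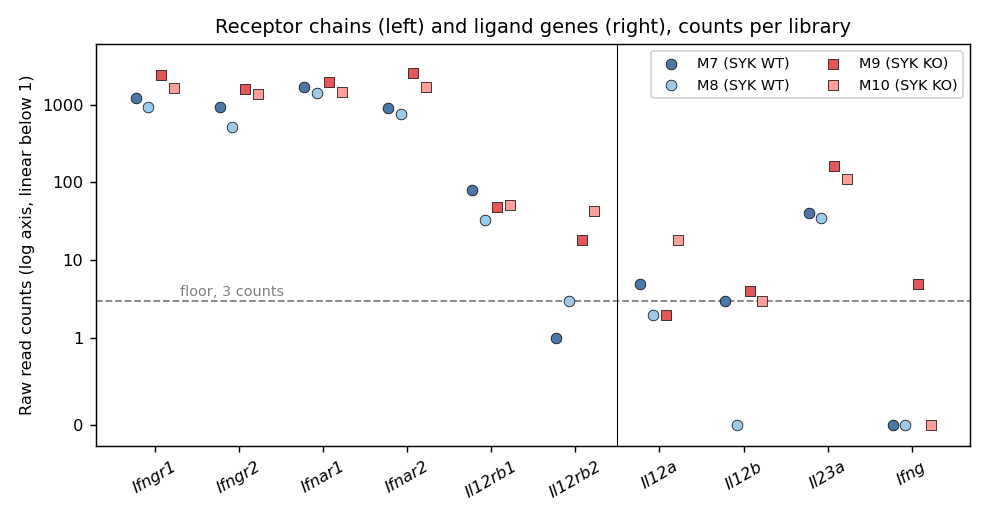
Raw read counts (log axis, linear below 1) of the 6 receptor chains and the 4 ligand genes in each library, with SYK WT as blue circles, SYK KO as red squares and the floor of 3 counts dashed. The 4 interferon receptor chains lie between 523 and 2524 counts, whereas *Il12a*, *Il12b* and *Ifng* lie between 0 and 18.

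The levels per length ranked the interferon receptor chains highest. *Ifngr1* averaged 56.3 TPM in SYK WT and 70.5 TPM in SYK KO, *Ifnar2* 37.8 and 63.0 TPM, *Ifngr2* 28.7 and 39.0 TPM and *Ifnar1* 38.8 and 28.3 TPM (n = 2 each). In SYK KO the SDs of *Ifngr1* and *Ifnar2* were 26.9 and 25.4 TPM, so their order there was not separated by the spread. In SYK WT *Ifnar1* and *Ifnar2*, with SDs of 2.79 and 2.92 TPM, were not separated either, with length taken as summed exons. *Ifnar2* and *Ifngr2* were not separated in either group, the SD of *Ifngr2* in SYK WT being 9.87 TPM. *Il23a* followed at 2.55 and 6.08 TPM, ahead of *Il12rb1* at 2.05 and 1.18 TPM. TPM carried no TMM factors, and the TPM means of *Ifnar1* and *Il12rb1* were lower in SYK KO, opposite to their CPM below. *Il12rb2* averaged 0.0811 and 0.764 TPM, *Il12a* 0.306 and 0.540 TPM, *Il12b* 0.111 and 0.177 TPM and *Ifng* 0 and 0.206 TPM. In SYK WT *Il12rb1*, with an SD of 1.12 TPM, was not separated from *Il23a*, nor *Il12b*, with an SD of 0.157 TPM, from *Il12rb2*. In SYK KO the neighbors in the order *Il12rb2*, *Il12a*, *Ifng* and *Il12b* differed by less than the larger of their SDs.

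The chains of the interferon gamma receptor both rose in SYK KO relative to the bulk of genes. *Ifngr1* (ENSMUSG00000020009, GRCm38 chr10:19591949-19610229, + strand), the ligand-binding chain, had 1198 and 931 counts in M7 and M8 and 2388 and 1626 in M9 and M10. This was 40.8 ± 4.09 CPM in SYK WT and 102 ± 19.3 CPM in SYK KO (SD, n = 2), with no overlap between groups and a log2 difference of 1.33 ± 0.192 (SE, adjusted p = 0.00385, edgeR). *Ifngr2* (ENSMUSG00000022965), the signal-transducing chain, had 923 and 523 counts against 1605 and 1362. Its level was 27.5 ± 8.75 CPM against 76.1 ± 2.62 CPM, a log2 difference of 1.47 ± 0.239 (adjusted p = 0.00552), and here too both SYK KO libraries lay above both SYK WT libraries.

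Relative to the bulk of genes the chains of the type I interferon receptor rose by unequal amounts, and for *Ifnar1* the direction depended on the unit. *Ifnar2* (ENSMUSG00000022971), the high-affinity binding chain, had 911 and 760 counts in SYK WT and 2524 and 1662 in SYK KO. It went from 32.1 ± 1.62 to 107 ± 22.6 CPM, a log2 difference of 1.73 ± 0.196 (adjusted p = 0.00186). *Ifnar1* (ENSMUSG00000022967), the low-affinity chain bound by TYK2, had 1661 and 1396 counts against 1939 and 1435. It went from 58.7 ± 2.65 to 86.2 ± 11.3 CPM, a log2 difference of 0.55 ± 0.164 (adjusted p = 0.0375). The groups did not overlap in CPM for either chain, although in raw counts M10 held fewer *Ifnar1* reads than M7. The *Ifnar1* call was lost without M7 (0.60, adjusted p = 0.206), without M8 (0.50, adjusted p = 0.320), without M9 (0.33, adjusted p = 0.106) and by DESeq2 (0.51, adjusted p = 0.0738). In the first 3 of these fits 1 group was a single library. With libraries scaled to their total count alone its log2 difference was 0.03 (adjusted p = 0.926).

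The interleukin-12 receptor chains stood much lower and behaved differently from each other. *Il12rb1* (ENSMUSG00000000791, chr8:70808449-70821424, + strand), shared by the interleukin-12 and interleukin-23 receptors, had 80 and 33 counts in SYK WT and 48 and 51 in SYK KO. Its levels of 2.13 ± 1.11 and 2.55 ± 0.317 CPM overlapped between groups, with a log2 difference of 0.26 ± 0.543 (adjusted p = 0.733) that became -0.20 without M8. *Il12rb2* (ENSMUSG00000018341, chr6:67291318-67376188, - strand), the chain that recruits JAK2 and STAT4, had 1 and 3 counts in SYK WT and 18 and 43 in SYK KO. Its level went from 0.0793 ± 0.0605 to 1.61 ± 1.04 CPM, a log2 difference of 4.27 ± 0.968 (adjusted p = 0.0162). *Il12rb2* passed the filter on low counts only through the SYK KO libraries, where it was high, so that its call is no independent evidence of a difference. The pooled counts, 4 against 61, gave a ratio of 20.4 with an exact counting interval of 7.56 to 77.1. The call was lost without M7 (3.65, adjusted p = 0.165) and without M8 (5.25, adjusted p = 0.103), where SYK WT was a single library. *Il12rb2* shares 1519 exon bases with *Serbp1* on the opposite strand, which held between 11395 and 18448 counts and had a log2 difference of 0.88 (adjusted p = 0.0198). Use of strand in the counting was not stated, and reads of the 2 genes then cannot be told apart over those bases. Markers of T cells, the main bearers of this chain, were examined as well. Of 8 T cell markers 7 were tested, 5 were called higher in SYK KO and *Thy1* lower. Over all genes tested, 22.7% were called higher and 16.7% lower. Of the 5, *Cd3d*, *Cd3e*, *Cd3g* and *Cd8b1* passed the filter only through the SYK KO libraries, so their calls are no independent evidence. The summed level of the list was 24.3 and 21.6 CPM in SYK WT and 60.4 and 38.9 CPM in SYK KO. Of these sums *Thy1* held 15.2 and 17.1 CPM in SYK WT, and *Cd4* held 49.8 and 25.9 CPM in SYK KO. *Cd3e* had 2, 1, 30 and 41 counts in M7, M8, M9 and M10. Of 8 natural killer cell markers 6 were tested and 2 were called higher, too few to set apart from the 22.7% of all genes tested. Of the 2, *Klrd1*, at 11, 8, 47 and 26 counts, reached the filter only with the SYK KO libraries. Its call is no independent evidence. The summed levels of the 8 natural killer cell markers were 15.6, 18.3, 27.9 and 20.4 CPM. The part of T cells and natural killer cells in the *Il12rb2* counts was not tested.

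Altogether 7 of the 10 genes passed the filter on low counts, 6 of them were called higher in SYK KO and none lower. *Il12rb2* was among the 6 and had entered the test only through the group where it was high, and a filter of at least 10 counts in every library left 5 calls. Over all 16451 genes tested 22.7% were called higher by the same rule and 16.7% lower, 39.4% in all. In 6 of the 7 both SYK KO libraries lay above both SYK WT libraries, as did 38.0% of all genes tested. The median log2 difference of the 6 receptor chains was 1.40, beside 0.02 over all genes tested. None of the 7 had a negative difference by edgeR under TMM, and DESeq2 likewise called 0 of them lower. Leaving out M8 reduced the calls from 6 to 3, and leaving out M7 to 4.

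The direction of these differences depended on what the libraries were scaled to. Scaled to the 10 macrophage markers, the median of all genes tested moved to -2.90 on the log2 scale, 87.9% of genes were called lower and 0.577% higher. On that scale *Ifngr1* stood at -1.62, *Ifngr2* at -1.40, *Ifnar2* at -1.23, *Ifnar1* at -2.39 and *Il12rb1* at -2.54, and these 5 were called lower in SYK KO. *Il23a* stood at -0.71 and *Il12rb2* at 1.51 (adjusted p = 0.299), neither of them called. All 7 lay above the median of all genes on that scale. Scaled to 6 pan-leukocyte genes the median of all genes was -3.60, with 92.8% called lower and 0.334% higher, the same 5 chains were called lower and the median of the receptor chains was -2.22. Relative to macrophage markers these 5 chains were thus lower in the libraries labelled SYK KO, and under TMM 4 of them were called higher.

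**Figure D2:**
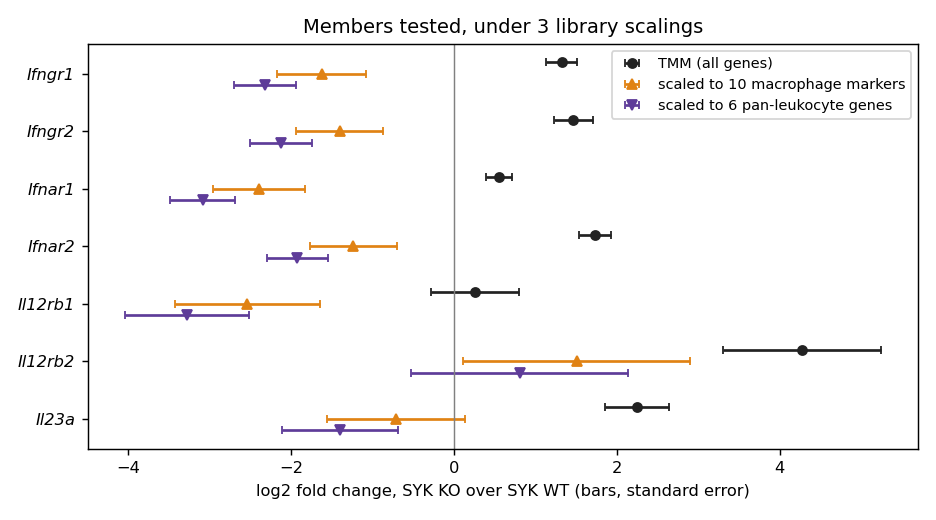
Log2 fold change of the 7 genes tested, SYK KO over SYK WT, with standard errors, for libraries scaled by TMM, to 10 macrophage markers or to 6 pan-leukocyte genes. The 4 interferon receptor chains lie between 0.55 and 1.73 under TMM and between -2.39 and -1.23 when scaled to the macrophage markers.

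Ratios of chains within a library do not depend on such scaling. They can still differ with the mix of cells in a library, and that part was not tested. *Ifnar2* took 35.4% of the counts of *Ifnar2* and *Ifnar1* in M7 (95% Wilson interval 33.6 to 37.3), 35.3% in M8 (33.3 to 37.3), 56.6% in M9 (55.1 to 58.0) and 53.7% in M10 (51.9 to 55.4). The ratio of the chains thus changed 2.25-fold. Per summed exon length the chains were level in SYK WT. In M7 *Ifnar2* stood at 39.9 TPM and *Ifnar1* at 40.7 TPM, and in M8 at 35.7 and 36.8 TPM. *Ifnar2* exceeded *Ifnar1* in SYK KO, at 80.9 and 34.8 TPM in M9 and at 45.01 and 21.8 TPM in M10. The equality in SYK WT rested on summed exons of 5940 bases for *Ifnar1* and 3329 for *Ifnar2*. Their longest transcripts hold 3909 and 3047 bases, and by those *Ifnar1* stood above *Ifnar2* in SYK WT and below it in SYK KO. The exact two-sided permutation test gave p = 0.333, the smallest that 2 against 2 libraries allow, or 0.5 adjusted over the 3 pairs compared. *Ifngr2* took 43.5%, 36.0%, 40.2% and 45.6% of the counts of the interferon gamma receptor chains, with overlapping groups and a log2 change of the ratio of 0.19 (exact p = 0.667, adjusted 0.667). *Il12rb2* took 1.23% of the interleukin-12 receptor counts in M7 (0.218 to 6.67), 8.33% in M8 (2.87 to 21.8), 27.3% in M9 (18.0 to 39.0) and 45.7% in M10 (36.0 to 55.8). That ratio changed 16.7-fold, without overlap (exact p = 0.333, adjusted 0.5). An exact permutation test could not pass the threshold for any pair with 2 libraries per group.

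**Figure D3:**
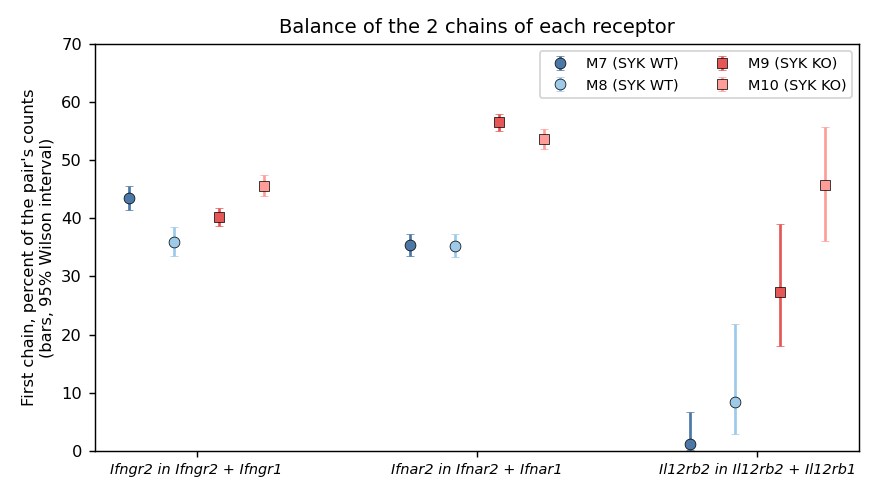
Share of a receptor's counts that came from the first-named chain (percent, with 95% Wilson intervals) in each library. *Ifnar2* held 35.3% to 35.4% in SYK WT and 53.7% to 56.6% in SYK KO, whereas the shares of *Ifngr2* overlapped between groups.

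The unequal change of *Ifnar2* and *Ifnar1* was seen between near neighbors. Mouse chromosome 16 carries *Ifnar2* (chr16:91372783-91405589), *Il10rb* (chr16:91406164-91425834), *Ifnar1* (chr16:91485238-91507441) and *Ifngr2* (chr16:91547072-91565623) in this order on the + strand of GRCm38. *Il10rb* encodes a chain shared by the receptors of interleukin-10 and of the type III interferons, and 574 bases separate it from *Ifnar2*. Along the cluster the log2 difference was 1.73 for *Ifnar2*, 2.06 ± 0.241 for *Il10rb* (adjusted p = 0.00204), 0.55 for *Ifnar1* and 1.47 for *Ifngr2*. *Ifnar2* and *Il10rb* overlap an annotated gene, *Gm21970*, by 315 and 569 exon bases, and that gene was listed at 0 counts in all 4 libraries.

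**Figure D4:**
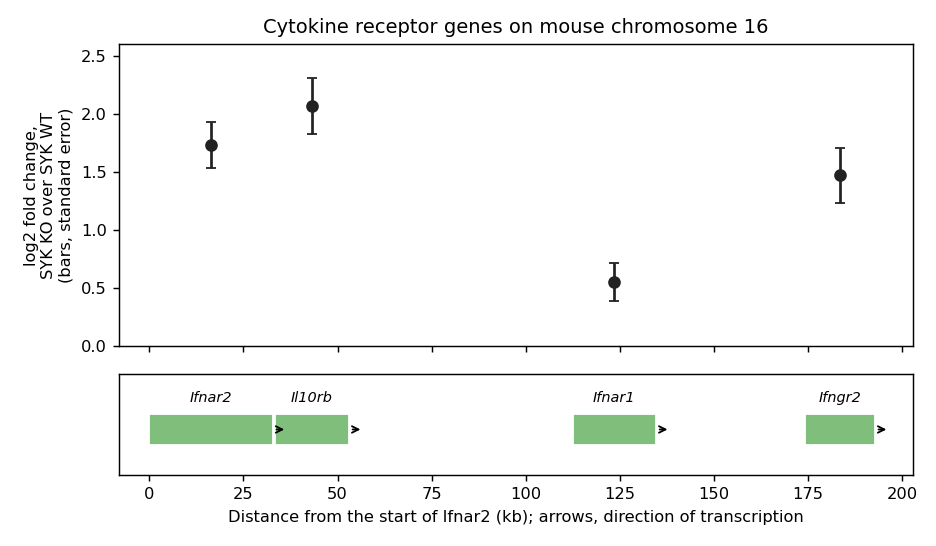
Log2 fold change (SYK KO over SYK WT, with standard errors) of the 4 cytokine receptor genes of chromosome 16, above their positions in kb from the start of *Ifnar2*. *Ifnar1* at 0.55 lies below its neighbors, which lie between 1.47 and 2.06.

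The promoters of the 4 interferon receptor chains are shown because their differences under TMM were unequal. Those of *Il12b* and *Ifng* are shown because these ligand genes stayed near the floor. Each is the 250 bases upstream of the RefSeq start site (GRCm38.p6), written 5′ to 3′ on the strand of the gene. Capitals mark matches, on either strand, to the GAS core TTCNNNGAA of interferon gamma target genes, the PU.1 core GAGGAA, the TATA box TATAAA and the SP1 GC box GGGCGG.
*Ifnar2*, chr16:91372533-91372782, + strand: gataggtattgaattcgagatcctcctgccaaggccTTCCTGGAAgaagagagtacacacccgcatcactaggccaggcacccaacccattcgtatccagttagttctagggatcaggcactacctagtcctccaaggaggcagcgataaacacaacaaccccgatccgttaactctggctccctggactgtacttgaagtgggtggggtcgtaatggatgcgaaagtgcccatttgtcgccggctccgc
*Ifnar1*, chr16:91484965-91485214, + strand: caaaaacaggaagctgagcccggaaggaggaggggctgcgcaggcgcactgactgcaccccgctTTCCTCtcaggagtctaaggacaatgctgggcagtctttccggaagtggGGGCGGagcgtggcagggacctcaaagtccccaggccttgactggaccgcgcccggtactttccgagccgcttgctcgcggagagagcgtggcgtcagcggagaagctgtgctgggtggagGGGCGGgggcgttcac
*Ifngr1*, chr10:19591699-19591948, + strand: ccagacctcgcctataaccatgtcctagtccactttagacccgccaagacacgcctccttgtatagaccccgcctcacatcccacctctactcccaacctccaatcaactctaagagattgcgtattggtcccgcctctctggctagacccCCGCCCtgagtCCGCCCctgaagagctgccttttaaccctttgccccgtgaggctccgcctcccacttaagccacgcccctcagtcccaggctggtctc
*Ifngr2*, chr16:91546809-91547058, + strand: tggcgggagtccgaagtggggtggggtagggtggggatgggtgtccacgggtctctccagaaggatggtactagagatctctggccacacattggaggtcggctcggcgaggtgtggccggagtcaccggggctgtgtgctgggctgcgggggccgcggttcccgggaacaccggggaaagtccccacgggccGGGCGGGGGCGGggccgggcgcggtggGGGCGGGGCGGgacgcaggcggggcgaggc
*Il12b*, chr11:44399813-44400062, + strand: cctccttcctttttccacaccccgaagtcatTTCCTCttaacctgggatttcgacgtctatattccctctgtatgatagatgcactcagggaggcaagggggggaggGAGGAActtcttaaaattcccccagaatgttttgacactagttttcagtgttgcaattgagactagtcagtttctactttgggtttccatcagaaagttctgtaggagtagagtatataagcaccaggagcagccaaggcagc
*Ifng*, chr10:118440796-118441045, + strand: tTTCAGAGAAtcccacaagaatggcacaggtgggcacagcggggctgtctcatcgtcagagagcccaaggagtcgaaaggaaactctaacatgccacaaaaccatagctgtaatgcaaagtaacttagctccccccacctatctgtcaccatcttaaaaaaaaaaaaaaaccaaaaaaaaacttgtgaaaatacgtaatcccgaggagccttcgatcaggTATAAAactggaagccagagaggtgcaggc
The *Ifnar2* window held 1 GAS core and no GC box, whereas that of *Ifnar1* held 2 GC boxes and 1 PU.1 core. The windows of *Ifngr1* and *Ifngr2* held 2 and 4 GC boxes, some of the latter adjoining or overlapping. *Il12b* had 2 PU.1 cores, and *Ifng* had 1 GAS core and 1 TATA box. No window among these held the ISRE core, the element of type I interferon target genes. Among 32817 RefSeq windows of this length, 7.01% held the GAS core, 2.97% the ISRE core, 23.3% the PU.1 core, 12.4% the TATA box and 32.7% the GC box. GC content was 54.0% for *Ifnar2*, 65.6% for *Ifnar1*, 59.2% for *Ifngr1* and 74.0% for *Ifngr2*, against a median of 52.4% over all windows. It was 46.0% for *Il12b* and 45.2% for *Ifng*. A match describes the letters of a window and is not evidence of binding. Windows were found for 8 of the 10 genes, and *Il12rb1* and *Il23a* had none.

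Among the ligand genes *Il23a* was the only one to pass the filter, and it rose. *Il23a* (ENSMUSG00000025383, chr10:128296139-128298752, - strand) had 41 and 35 counts in SYK WT and 163 and 110 in SYK KO. Its level went from 1.46 ± 0.0499 to 6.95 ± 1.36 CPM without overlap, a log2 difference of 2.25 ± 0.389 (adjusted p = 0.00678). Without M8 the difference was 2.20 and the call was lost (adjusted p = 0.0639), SYK WT then being a single library. Its partner *Il12b* (ENSMUSG00000004296, chr11:44400063-44414033, + strand) had 3, 0, 4 and 3 counts in M7, M8, M9 and M10. Per length, *Il23a* stood at 2.66, 2.44, 7.74 and 4.41 TPM where *Il12b* stood at 0.222, 0, 0.217 and 0.138 TPM. *Il23r*, the receptor chain specific to interleukin-23, had 0 counts in all 4 libraries. Of 8 dendritic cell markers, 6 were called higher in SYK KO, beside 22.7% of all genes tested. Among the 6, *Flt3* and *Xcr1* reached the filter only with the SYK KO libraries, so their calls are no independent evidence. The summed levels were 22.6, 18.2, 240 and 243 CPM in M7, M8, M9 and M10, of which *Itgax* alone held 6.93, 4.68, 164 and 171 CPM. The part of dendritic cells in the *Il23a* counts was not tested.

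*Il12a* (ENSMUSG00000027776, chr3:68690644-68698547, + strand), the subunit particular to interleukin-12, had 5 and 2 counts in SYK WT and 2 and 18 in SYK KO. The value of M10 stood above the other 3, and the groups overlapped. The exact Poisson interval was 0.242 to 7.22 counts for M9 and 10.7 to 28.4 for M10, so the 2 SYK KO libraries differed by more than counting error. The pooled ratio of 20 to 7 counts was 3.81 (1.55 to 10.7), and it rested on M10. Without the filter on low counts the log2 difference was 1.94 (adjusted p = 0.323), and without M9 *Il12a* passed the filter at 2.74 (adjusted p = 0.0258). That fit had M10 as its only SYK KO library, through which the gene passed, and the lone library is assumed to vary like the SYK WT libraries. *Il12b* held 3 counts in SYK WT and 7 in SYK KO, a ratio of 3.12 (0.711 to 18.7), and the fit without the filter gave 1.57 (adjusted p = 0.630). A difference in *Il12b* was not detectable at this depth.

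*Ifng* (ENSMUSG00000055170, chr10:118441046-118445892, + strand) had 0, 0, 5 and 0 counts in M7, M8, M9 and M10. All 5 reads were in M9, with an exact Poisson interval of 1.62 to 11.7 counts. The same interval reaches 3.69 counts for a count of 0, so M9 was not separated from the other libraries, and the fit without the filter gave an adjusted p of 0.282. *Ifng* shares 336 exon bases with *Gm49751*, which was listed at 0 counts.

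Further ligands of the interferon pathways and of cytokines that act beside them were mostly undetected. Of 14 such genes 3 passed the filter and 2 rose, too few to set apart from the 22.7% of all genes tested that were called higher. *Ebi3*, a subunit of interleukin-27, had 34 and 10 counts in SYK WT and 402 and 291 in SYK KO, a log2 difference of 4.40 ± 0.513 (adjusted p = 0.00204). Its partner *Il27* had only 0 and 3 against 22 and 9 counts. *Il15*, a growth factor of natural killer cells, rose by 2.27 ± 0.343 (adjusted p = 0.0044), and *Il18* had a log2 difference of 0.61 (adjusted p = 0.102). *Ifnb1* had 6 and 3 counts against 13 and 10. A further 8 had no count in any library, among them *Ifna1*, *Ifna2*, *Ifna4*, *Ifna5* and *Ifna13*, which are near-identical copies between which reads can be lost.

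Of 8 further receptor chains 6 were tested, 2 rose and none fell, with a median of -0.27. Over all genes tested 22.7% were called higher, and nothing particular to this list or to the feedback inhibitors below is read from counts so small. Besides *Il10rb*, *Il27ra* rose by 2.26 ± 0.581 (adjusted p = 0.0243), from 15 and 16 counts to 76 and 38. Of 8 Janus kinase, STAT and IRF9 genes all were tested and 2 rose, a share near the 22.7% of all genes tested. One was *Stat4*, the transducer of interleukin-12, at 2.29 ± 0.523 (adjusted p = 0.0167) from 20 and 14 to 58 and 66 counts. The median of the 8 was 0.14. Of 6 feedback inhibitors 2 rose, the phosphatase genes *Ptpn6* at 3.32 (adjusted p = 0.000486) and *Ptpn2* at 0.86 (adjusted p = 0.0131), with a median of 0.46. *Ptpn6* is expressed throughout the blood lineages.

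Most target genes of interferon gamma rose. Of 15 such genes 14 were tested, 12 rose and none fell, with a median log2 difference of 1.92. *Cxcl9*, a chemokine for T cells, had 43 and 34 counts in SYK WT and 2509 and 1652 in SYK KO, a log2 difference of 6.16 ± 0.255 (adjusted p = 0.000486). *Gbp2*, a guanylate-binding protein of host defense, stood at 2.18, *Nos2*, the inducible nitric oxide synthase, at 2.50 and *Cxcl10* at 1.63. *Irgm2* at 0.90 and *Irf1* at 0.17 did not pass, and *Ido1*, with 0, 0, 23 and 3 counts, was not tested. Of 14 type I interferon targets all were tested, 8 rose and 1 fell, with a median of 1.31. *Rsad2*, which encodes the antiviral viperin, stood at 2.70 and *Ifit2* at 2.41, and *Ifi44* fell by 1.75 (adjusted p = 0.0092). Over all 65 genes of these 6 lists, 51 were tested, 28 rose and 1 fell, beside 22.7% and 16.7% of all genes tested. Scaled to the macrophage markers, 2 of the 51 were called higher and 33 lower, beside 0.577% and 87.9% of all genes, and *Cxcl9* was higher under that scaling too.

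**Figure D5:**
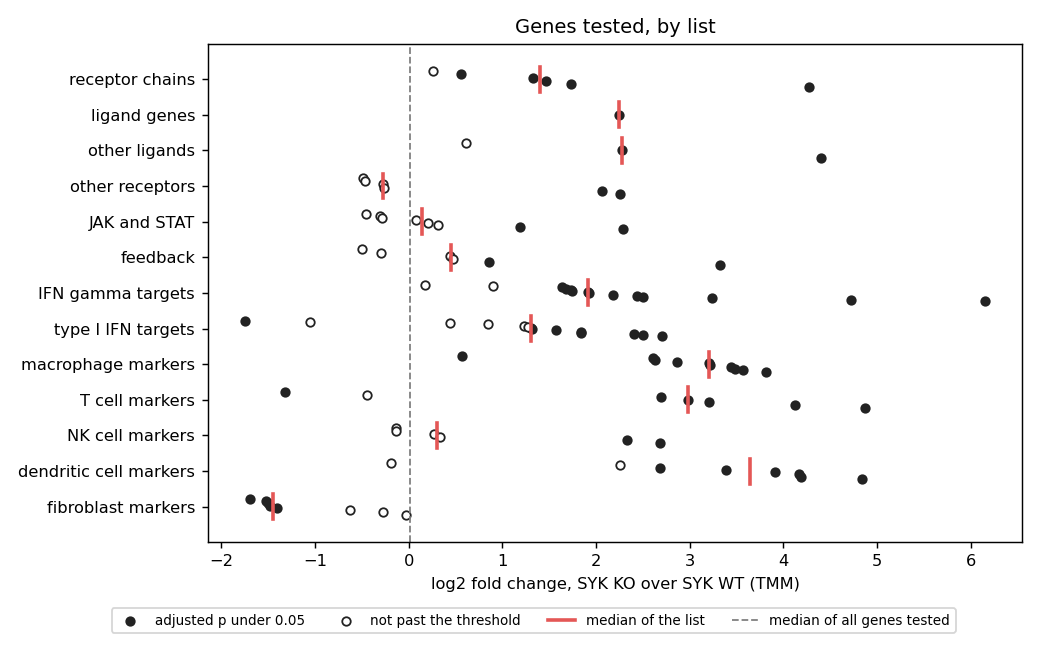
Log2 fold change (SYK KO over SYK WT, TMM) of every gene tested in each list, filled where the adjusted p was under 0.05, with the median of each list in red and that of all genes dashed. The median was 1.40 for the receptor chains, 1.92 for interferon gamma targets, 3.21 for macrophage markers and -1.44 for fibroblast markers.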

How the data were processed

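RNA-seq had been carried out on cells described as TAMs, in 2 SYK WT and 2 SYK KO libraries. Raw counts per Ensembl gene, deposited by the authors as 1 table, were used as they stood. Per the labels, poly(A) libraries were read as paired ends, whereas the study's methods describe single reads, and strand was not stated. The submitters' processing notes name STAR 2.6.1d, Salmon 1.4.0, SAMtools 1.9, Picard 2.26, MultiQC 1.11 and mm10. How whole-number counts were obtained is not given in the sources used here. Symbols and exon lengths came from GENCODE M21 (GRCm38), which matched 54495 of 54532 genes. Groups were compared over all genes that passed filterByExpr, with the edgeR 4.0.16 quasi-likelihood test, TMM scaling and Benjamini-Hochberg adjustment at a threshold of 0.05 (R 4.3.3). DESeq2 1.42.0 served as an alternative. The fit was tested on simulated data. There edgeR called 32 of 100 genes with a log2 change of 1 in either direction and 64 of 100 with a change of 2. All these calls had the right sign, and 3 unchanged genes were called. A gene not called may thus still differ. TPM was computed from counts and summed exon length. Receptor pairs were compared with exact permutation tests. Promoter windows and motif shares came from RefSeq (GRCm38.p6). Alternatives covered scaling, filters, detection floors, transcript length, mitochondrial genes and leaving out each library. The genes described and all lists were chosen with earlier results of these data known. Named genes were the 10 genes, *Syk*, up to 4 called genes per list with the highest mean CPM plus those called in the minority direction, and the 2 protein-coding genes nearest in profile to each tested receptor chain. Some further genes (*Serbp1*, *Gm21970*, *Gm49751*, *Il23r*, *Ifnb1*, *Il27*, *Il18*, *Irgm2*, *Irf1*, *Ido1*, *Cd3e*, *Thy1*, *Hand2*, *Mycn* and the genes at 0) were named after their values were seen. So were *Cd3d*, *Cd3g*, *Cd4*, *Cd8b1*, *Klrd1*, *Flt3*, *Xcr1* and *Itgax*. Results for some genes of these lists are not reported here.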

Additional observations from a re-analysis of the deposited data

How the results depend on the processing

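No paired analysis was possible because the labels give the groups no shared replicate numbers. The 6 calls among the 10 genes became 0 higher and 5 lower under macrophage scaling, and 0 and 5 under leukocyte scaling (the 2 marker sets of the report). Leaving out 1 library at a time left 3 to 6 higher and 0 lower. Over all genes, 3729 higher and 2747 lower became 1677 and 5411 with total counts only, 95 and 14454 with macrophage scaling and 55 and 15270 with leukocyte scaling. Leaving out 1 library gave 1478 to 5010 higher and 807 to 4745 lower. In the pathway lists, 28 higher became 2 and 1 under the macrophage and leukocyte scalings and 19 to 37 without 1 library. The 1 lower became 2 with DESeq2 size factors, 8 with total counts, 3 with at least 10 counts in every library, 3 with DESeq2, 2 without mitochondrial genes, 33 and 43 under the macrophage and leukocyte scalings and 0 to 5 without 1 library. Detection of ligand values fell to 31.2% at a floor of 10 counts. Leaving out 1 library gave 58.3% to 75.0% for ligands, 94.4% to 100% for receptor chains, and TPM ratios of receptor chains to ligands of 37.4 to 46.8. The log2 change of the *Ifngr2* to *Ifngr1* ratio, 0.19, became -0.038 without M8 and ranged up to 0.42. That of *Ifnar2* to *Ifnar1* ranged from 1.08 to 1.25 and that of *Il12rb2* to *Il12rb1* from 2.63 to 5.49.

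Under macrophage and leukocyte scaling, the median of all genes itself moved to -2.90 and -3.60, so that genes with smaller TMM differences were bound to turn negative. *Ifngr1* went to -1.62 and -2.32, *Ifngr2* to -1.40 and -2.12, *Ifnar1* to -2.39 and -3.09, *Ifnar2* to -1.23 and -1.92, *Il12rb1* to -2.54 and -3.28, *Il23a* to -0.71 and -1.40, and *Syk* to -0.13 and -0.83. *Il10rb* went to -0.90 and -1.59, *Il27ra* to -0.76 and -1.43, *Il15* to -0.68 and -1.37, *Stat4* to -0.55 and -1.27, *Ptpn2* to -2.06 and -2.76, *Gbp2* to -0.69 and -1.40, *Rsad2* to -0.31 and -0.99, and *Ifit2* to -0.59 and -1.28. *Ptpn6* turned only under leukocyte scaling, to -0.33. *Il12rb1* also turned to -0.29 with total counts and to -0.20 without M8, within a range of -0.20 to 0.92 over the 4 libraries left out. The cause was not tested beyond the scaling itself. *Ifnar1* further lost its call with DESeq2 size factors (adjusted p = 0.0595) and without mitochondrial genes (0.0629). *Cxcl9* remained higher and past the threshold in all 12 alternatives run. With 2 libraries per group no exact permutation test could pass the threshold, and levels under the floor of 3 counts were not resolved.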

Other observations

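For each receptor chain tested, the protein-coding genes with the most similar course over the 4 libraries were sought among 12933 candidates, by the Euclidean distance of centred log2 CPM. The 4 points share library and depth, and so many genes were compared that close neighbors arise in any profile. *Ifnar2* lay nearest to *Lamtor4* (distance 0.0293), a lysosomal adaptor gene, and to *M6pr* (0.0428), a receptor that sorts lysosomal enzymes. *Ifnar1* lay nearest to *Sdf2* (0.0246) and *Prdx2* (0.0249), *Ifngr1* to *Polr2g* (0.0401) and *Gna12* (0.0457), and *Ifngr2* to *1700017B05Rik* (0.106) and *Slfn8* (0.137). *Il12rb1* lay nearest to *Siah1b* (0.173) and *Myrf* (0.185), and *Il12rb2* to *Ryr1* (0.0895) and *Gm12185* (0.238).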
